A study of Rattus norvegicus with 4 samples.

Results

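The 5 kainate receptor subunit genes Grik1, Grik2, Grik3, Grik4 and Grik5 were followed across 4 arrays of rat hippocampal RNA. Each gene was represented by 1 probe set, a group of short probes against one transcript that the platform annotation assigned to that symbol alone. The 5 genes were chosen by name from 14217 genes with a probe set. Of the 5 subunits, 4 passed the filter on dim signal, a mean intensity above 62.75, as did 9489 genes in all. The study injected kainic acid and the peptide NAP together (KA+NAP), kainic acid alone (KA), NAP alone, or the vehicle PBS into the hippocampus of Sprague-Dawley rats, and collected the CA3 area 24 h later. NAP is a short peptide derived from activity-dependent neuroprotective protein. Every group had 1 array, and whether an array held RNA of a single animal or of a pool is not given in the sources used here. No value below therefore carries a replicate error, and no test between groups was possible.

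Kainate receptors are cation channels gated by glutamate, and kainic acid is the agonist that gave them their name. The subunits GluK1, GluK2 and GluK3, encoded by Grik1, Grik2 and Grik3, can form channels by themselves and bind kainate with lower affinity. GluK4 and GluK5, encoded by Grik4 and Grik5, bind it with high affinity and need one of the first group as partner. In the hippocampus these receptors are best known at the synapses that mossy fibres of dentate granule cells make on CA3 pyramidal cells. Mice without Grik2 are less sensitive to seizures from kainic acid.

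Grik2 and Grik4 were the subunits with the lowest intensities on the KA+NAP array relative to the other arrays, and the stretch before the start site of each is shown because both moved in that direction. The sequences are the 250 bases before the start given in the RefSeq promoter table, build GRCr8, both on the minus strand and printed in the direction of transcription. That of Grik2 lies at chr20:54415284-54415533 and that of Grik4 at chr8:52102064-52102313. Capitals mark the cyclic AMP response element core TGACG on either strand, which appears here as its reverse complement.
Grik2: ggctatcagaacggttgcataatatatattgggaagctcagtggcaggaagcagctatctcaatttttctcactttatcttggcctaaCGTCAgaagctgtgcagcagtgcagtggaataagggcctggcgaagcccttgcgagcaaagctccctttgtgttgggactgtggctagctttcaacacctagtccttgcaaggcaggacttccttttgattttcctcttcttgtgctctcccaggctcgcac
Grik4: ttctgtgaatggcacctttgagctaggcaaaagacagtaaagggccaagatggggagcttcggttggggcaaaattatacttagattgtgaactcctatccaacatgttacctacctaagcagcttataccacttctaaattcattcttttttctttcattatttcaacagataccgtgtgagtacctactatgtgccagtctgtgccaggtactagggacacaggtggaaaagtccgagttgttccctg
The start used for Grik2 is the outer end of the annotated gene, whereas that used for Grik4 lies inside it, since other annotated transcripts of Grik4 begin farther upstream. The motifs searched on both strands were the full element TGACGTCA, its core TGACG, the AP-1 site TGANTCA and the GC box GGGCGG, and each TGACGTCA also counts as a TGACG. The Grik2 window held 1 TGACG, beginning 162 bases before the start, and the Grik4 window held none of the 4 motifs. TGACG was present in 18.2% of the 33469 promoter windows of this length, TGACGTCA in 1.59%, TGANTCA in 6.34% and GGGCGG in 30.5%. Of the other subunits, Grik3 had 5 GC boxes, Grik5 had 1 and Grik1 had no match. The starts used for Grik1 and Grik5 were not the outer end of the annotated gene, whereas that for Grik3 was. GC content was 49.6% before Grik2 and 43.2% before Grik4, against a median of 51.2% over all windows. These matches describe the letters in the windows and say nothing about whether a factor bound there.

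Among the low-affinity subunits, Grik2 encodes GluK2, the main subunit of CA3 kainate receptors. Its probe set 1369036_at had an intensity of 154 on the KA+NAP array, 200 on the KA array, 235 on the NAP array and 235 on the PBS array. Both arrays with kainic acid were below both arrays without it, which did not differ from each other. The log2 difference was -0.22 in KA minus PBS, -0.58 in KA+NAP minus NAP and -0.36 in KA+NAP minus KA. In linear terms after the pseudocount of 10, Grik2 was 14.3% lower with KA than with PBS and 33.1% lower with KA+NAP than with NAP. No Grik2 difference reached 2-fold, the fixed size used here.

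Grik1 encodes GluK1, a subunit prominent in hippocampal interneurons. Its probe set 1387309_a_at had an intensity of 76 on the KA+NAP array, 66 on the KA array, 69 on the NAP array and 95 on the PBS array. The PBS array was the highest and the other 3 lay close together, so the arrays with and without kainic acid overlapped. Its log2 difference was -0.47 in KA minus PBS, 0.12 in KA+NAP minus NAP, 0.18 in KA+NAP minus KA and -0.41 in NAP minus PBS. With a mean of 76.5, Grik1 lay only a little above the filter threshold. Its KA difference thus had opposite signs without and with NAP, but the gap between them, 0.59 on the log2 scale, was less than 2-fold.

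Grik3 encodes GluK3, which has the lowest sensitivity to glutamate of the family. Its probe set 1370587_at stood at 14 on the KA+NAP array, 2 on the KA array, 1 on the NAP array and 3 on the PBS array. All 4 values were far below the threshold of 62.75, so Grik3 has no fold difference here and is left out of the counts and medians below. Whether its transcript was absent was not determined, since detection calls were not used.

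Among the high-affinity subunits, Grik4 encodes GluK4, which is concentrated in CA3 pyramidal cells and also expressed by dentate granule cells. Its probe set 1369163_at had an intensity of 191 on the KA+NAP array, 365 on the KA array, 325 on the NAP array and 407 on the PBS array. The KA+NAP array stood apart below the other 3, and the KA array lay between the NAP and PBS arrays. The log2 difference was -0.15 in KA minus PBS, -0.74 in KA+NAP minus NAP, -0.90 in KA+NAP minus KA and -0.32 in NAP minus PBS. In KA+NAP minus KA, 0.79% of the 9489 genes had a lower difference than Grik4. After the pseudocount, Grik4 was 46.4% lower with KA+NAP than with KA, and 10.1% lower with KA than with PBS.

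Grik5 encodes GluK5, the more widely expressed high-affinity subunit. Its probe set 1369128_at had an intensity of 152 on the KA+NAP array, 142 on the KA array, 189 on the NAP array and 160 on the PBS array. Both arrays with kainic acid were below both arrays without it, by a small margin against PBS. The log2 difference was -0.16 in KA minus PBS, -0.30 in KA+NAP minus NAP, 0.09 in KA+NAP minus KA and 0.23 in NAP minus PBS. The 2 high-affinity subunits therefore differed in order: the KA+NAP array was the lowest of the 4 for Grik4, whereas the KA array was the lowest for Grik5.

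**Figure D1:**
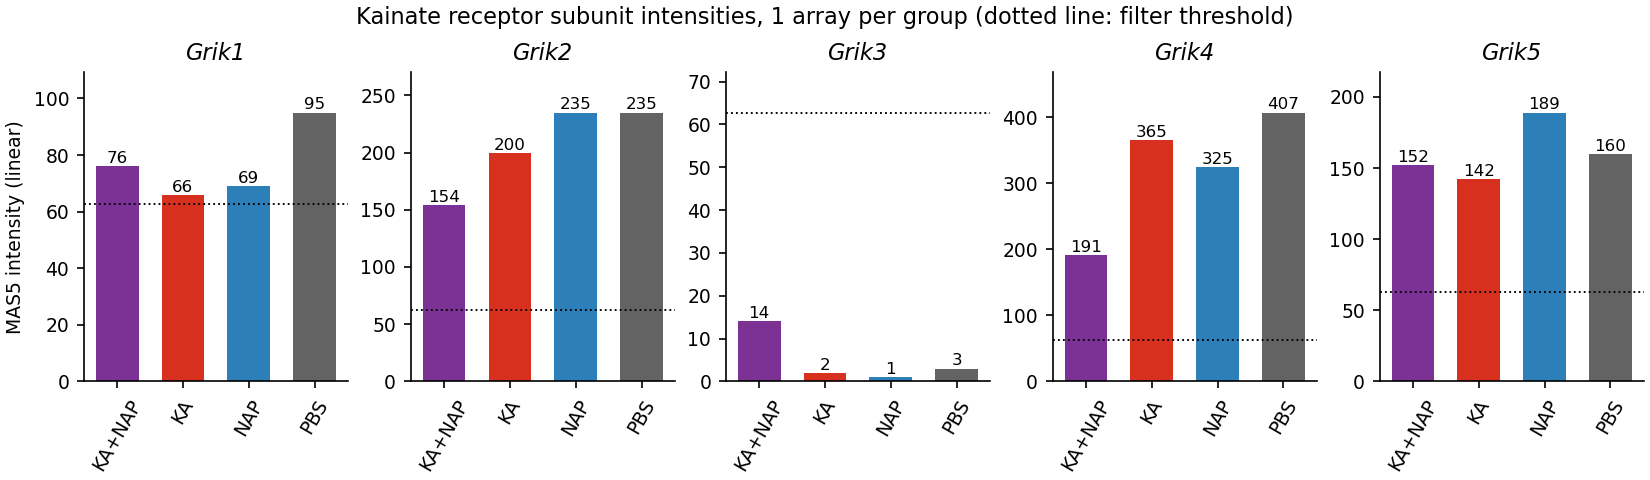
MAS5 intensity (linear, each panel with its own axis from 0) of the 5 kainate receptor subunits on the KA+NAP, KA, NAP and PBS arrays, 1 array per bar, with the filter threshold of 62.75 as a dotted line. Grik4 stands at 191 on the KA+NAP array and at 325 or more on the others, and Grik3 stays at 14 or less on all 4.

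Set against PBS, the KA array shows the toxin without the peptide. All 4 subunits past the filter lay below 0, with a median log2 difference of -0.19 and a range of -0.47 to -0.15, while the median over all 9489 genes was 0.02 and 47.2% of genes lay below 0. None of the 4 reached 2-fold in either direction, a size that 4.91% of the 9489 genes exceeded upward and 2.39% downward. Each of the 4 differences lay inside the central range of all genes, the 5th to the 95th percentile, which ran from -0.77 to 0.99.

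In the presence of the peptide, KA+NAP was compared with NAP. Of the 4 subunits, 3 lay below 0, beside 47.3% of all genes. Grik4 was at -0.74, Grik2 at -0.58, Grik5 at -0.30 and Grik1 at 0.12. Their median was -0.44, against 0.03 over all genes. None reached 2-fold, a size that 5.66% of the 9489 genes exceeded upward and 2.41% downward. The Grik4 value was close to the 5th percentile of all genes, -0.77. The difference between the KA effects with and without NAP was -0.58 for Grik4, -0.36 for Grik2, -0.14 for Grik5 and 0.59 for Grik1, all inside the central range of all genes (-0.68 to 0.73). These differences could not be tested with 1 array per group.

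For the peptide's effect in injured tissue, KA+NAP was compared with KA. The subunits divided evenly: Grik4 (-0.90) and Grik2 (-0.36) were below 0, and Grik1 (0.18) and Grik5 (0.09) above. Of all genes, 45.4% lay below 0. None of the 4 reached 2-fold, a size that 1.52% of the 9489 genes exceeded upward and 0.601% downward. The Grik4 value lay below the 5th percentile of all genes, -0.48, and the other 3 lay inside the central range.

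NAP was compared with PBS to describe the peptide alone. Grik2 did not differ at all (235 on both arrays), Grik5 was higher at 0.23, and Grik4 (-0.32) and Grik1 (-0.41) were lower. No subunit reached 2-fold, a size that 1.05% of the 9489 genes exceeded upward and 0.242% downward. To 2 decimals, the Grik1 value equalled the 5th percentile of all genes, -0.41, at an intensity where both arrays were near the filter threshold.

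The comparison of KA+NAP with PBS was added after the subunit values had been seen. Grik4 had a log2 difference of -1.05 there (51.8% lower), past 2-fold, and Grik2, Grik1 and Grik5 were at -0.58, -0.29 and -0.07. Thus 1 of the 4 was at least 2-fold lower and none at least 2-fold higher, beside 2.11% of all genes lower and 7.41% higher. With a pseudocount of 50 the Grik4 value was -0.92, short of 2-fold. The comparisons share arrays: the KA+NAP array enters each of the larger Grik4 differences, so they repeat 1 low measurement and do not back one another.

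Across the 4 arrays, Grik2 and Grik5 had both kainic acid arrays below both arrays without it, which made 2 of 4 subunits, while 28.7% of all genes did so and 32.3% had both kainic acid arrays higher. Grik2 and Grik4 had their lowest value on the KA+NAP array, as did 25.7% of all genes. Both counts rest on 4 genes.

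**Figure D2:**
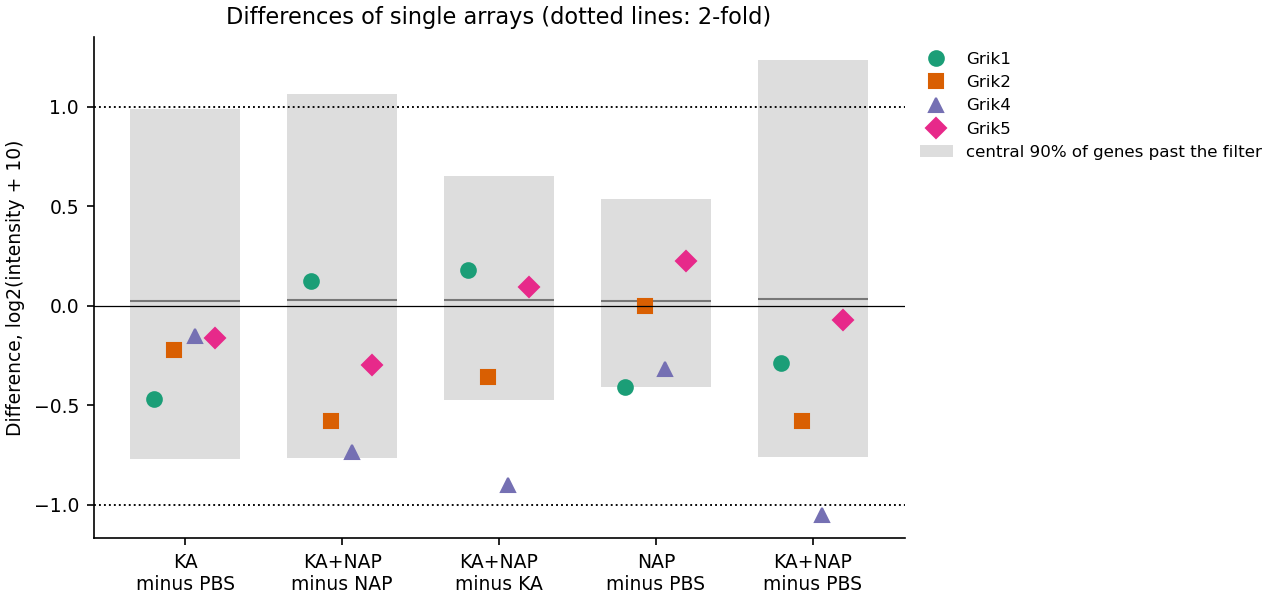
Log2 differences between single arrays for Grik1, Grik2, Grik4 and Grik5 in 5 comparisons, with grey bars spanning the 5th to 95th percentile of the 9489 genes past the filter, a grey line at their median, and dotted lines at 2-fold. Grik4 lies below the grey bar in KA+NAP minus KA (-0.90) and in KA+NAP minus PBS (-1.05).

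Kainate receptors are best known in neurons, so neuronal marker lists are given beside them. The summed intensity of 14 pan-neuronal markers was 35290 on the KA+NAP array, 36069 on the KA array, 45168 on the NAP array and 48252 on the PBS array. That of 10 CA3 and excitatory neuron markers was 7690, 7776, 10923 and 12463 on the same arrays. Both sums were lower on the kainic acid arrays, and both were nearly the same with KA+NAP as with KA. Bok, 1 of the CA3 and excitatory markers, was at 565 with KA+NAP, 637 with KA, 1033 with NAP and 1084 with PBS. In that list both kainic acid arrays were below both others for 8 of 10 markers, beside 28.7% of all genes. They were above both for 1, beside 32.3% of all genes. This was Camk2a, at 565 with KA+NAP, 464 with KA, 449 with NAP and 421 with PBS. In bulk tissue, fewer cells of a type and less RNA per cell cannot be told apart.

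The subunits were set beside these sums as percentages of the PBS array. The part of neuron number in the subunit values was not tested. On the KA array, Grik4 stood at 89.7% of its PBS intensity, Grik5 at 88.8% and Grik2 at 85.1%. The CA3 and excitatory marker sum stood at 62.4% and the pan-neuronal sum at 74.7%. On the KA+NAP array Grik4 stood at 46.9% of PBS and Grik2 at 65.5%. There the CA3 and excitatory sum stood at 61.7% and the pan-neuronal sum at 73.1%. The median of the CA3 and excitatory list in KA+NAP minus KA was -0.02, against -0.90 for Grik4. Single markers spread widely around the sums and this median. In that comparison 8 of 14 pan-neuronal and 5 of 10 CA3 and excitatory markers lay below 0, beside 45.4% of all genes. Syt1 was at -0.80 and Cpne4 at -0.53, for example, whereas Neurod2 was at 0.41. In KA+NAP minus PBS, 3 of 14 pan-neuronal and 2 of 10 CA3 and excitatory markers were at least 2-fold lower. Over all genes this share was 2.11%. Nefm was at -1.11, Cpne4 at -1.09 and Camk2a at 0.42 there, against -1.05 for Grik4. In KA minus PBS, markers of these lists ran from Neurod1 at -0.94 to Camk2a at 0.14. Grik1 was at 80% of PBS with KA+NAP and 69.5% with KA, where the sum of 8 GABAergic interneuron markers was at 97.2% and 93.7%. Those markers went both ways: Pvalb was at 227 with KA+NAP, 196 with KA, 256 with NAP and 426 with PBS, highest with PBS and lowest with KA as for Grik1, whereas Gad2 was at 116 with KA+NAP, 176 with KA, 80 with NAP and 74 with PBS.

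Markers of neighbouring hippocampal fields also differed between the arrays. The summed intensity of 7 dentate granule cell markers was 4090 with KA+NAP, 7611 with KA, 7411 with NAP and 5546 with PBS, so the KA+NAP array was the lowest here as it was for Grik4. All 5 of these markers that passed the filter were below 0 in KA+NAP minus KA, with a median of -0.66, led by the opioid precursor gene Pdyn at -2.03 (561 with KA+NAP, 2330 with KA). Over all genes, 45.4% were below 0 there. Prox1, the transcription factor that defines granule cells, was at 747 with KA+NAP and 753 with KA, a difference of -0.01. The 5 CA1 pyramidal markers summed to 2080 with KA+NAP, 602 with KA, 1709 with NAP and 2667 with PBS. The share of each hippocampal field in the tissue, and its part in the Grik4 and Grik2 values, was not tested. The 3′ to 5′ signal ratio of the beta-actin control, a sign of RNA integrity, was 15.5 with KA+NAP, 11.4 with KA, 7.92 with NAP and 14.1 with PBS. That of hexokinase ran differently, at 5.5 with KA+NAP, 6.68 with KA, 6.05 with NAP and 8 with PBS, and that of GAPDH lay between 1.31 and 1.56. Their part was likewise not tested.

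**Figure D3:**
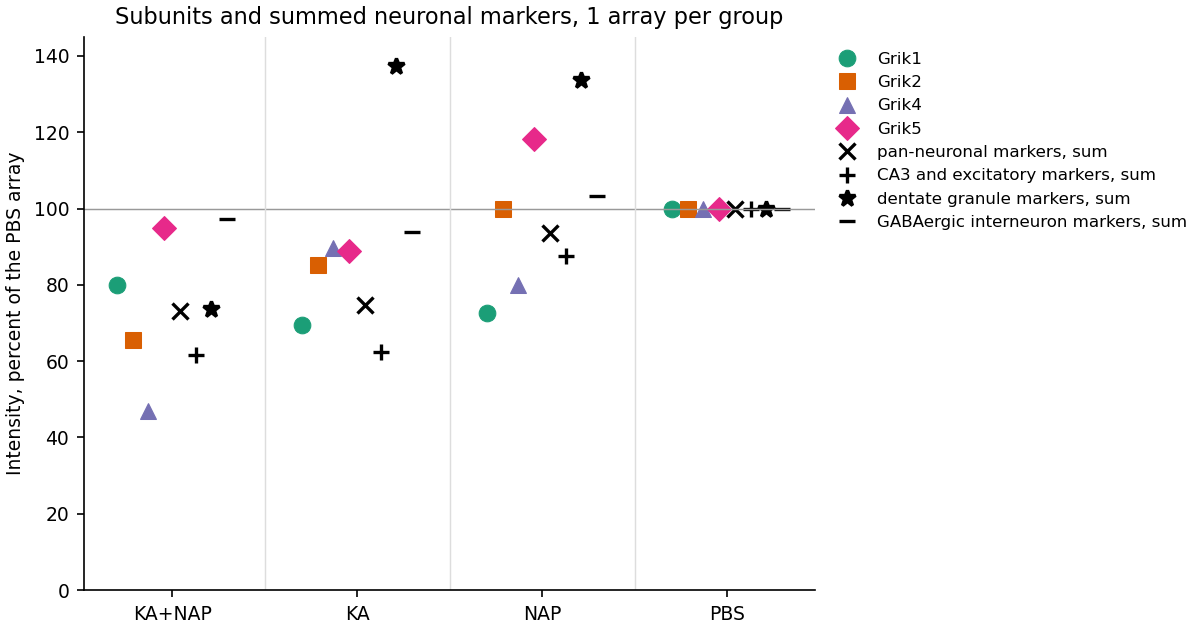
Intensity as a percentage of the PBS array for 4 kainate receptor subunits (coloured) and for the summed intensities of 4 neuronal marker lists (black), 1 array per group. On the KA array Grik2, Grik4 and Grik5 lie above the pan-neuronal sum and the CA3 and excitatory sum. On the KA+NAP array Grik4, at 46.9%, lies below every marker sum shown. Single markers, which are not shown, reached similar levels there, such as Nefm and Cpne4.

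Auxiliary proteins that assemble with kainate receptors or hold them at synapses were described next. Neto1, a membrane protein that slows the gating of hippocampal kainate receptors, had an intensity of 135 with KA+NAP, 172 with KA, 205 with NAP and 304 with PBS. Both kainic acid arrays were below both others, as for Grik2, and the KA+NAP array was the lowest, as for Grik2 and Grik4. The log2 difference of Neto1 was -0.79 in KA minus PBS, -0.55 in NAP minus PBS and -1.11 in KA+NAP minus PBS, past 2-fold in the last of these. Its relative Neto2 stayed between 110 and 147, with log2 differences of 0.15 in KA+NAP minus NAP and -0.24 in KA minus PBS.

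C1ql3, a secreted protein that recruits kainate receptors at mossy fibre synapses together with its close relative C1ql2, was at 456 with KA+NAP, 379 with KA, 1000 with NAP and 599 with PBS. It reached 2-fold in KA+NAP minus NAP, at -1.12, as 2.41% of all genes did downward. It was the 1 gene of 4 past the filter in this list to do so there, and none did in KA minus PBS. The NAP array was its highest, so that difference rests partly on a NAP value above PBS (0.73). Its second probe set was at 4 or less on every array. Nrxn3, a neurexin that binds these organisers, was at 1265 with KA+NAP, 1785 with KA, 1140 with NAP and 1626 with PBS, lower on both arrays with NAP. C1ql2 was not analysed here.

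Scaffold and trafficking partners gave 13 genes past the filter of 16 on the array. None reached 2-fold, and their medians were -0.28 in KA minus PBS, -0.10 in KA+NAP minus NAP and -0.03 in KA+NAP minus KA. Dlg4, which encodes the postsynaptic scaffold PSD-95 that binds GluK2, was at 563 with KA+NAP, 571 with KA, 837 with NAP and 849 with PBS. Its paralogue Dlg3 behaved alike on its brightest probe set (534 with KA+NAP, 546 with KA, 871 with NAP and 872 with PBS). The dimmer probe sets of Dlg4 and Dlg3 did not all show this: those of Dlg4 ranged from -0.71 to 0.71 in KA minus PBS. Dlg1 was higher on both kainic acid arrays on its brightest probe set, at 1042 with KA+NAP and 1262 with KA, against 983 with NAP and 830 with PBS. Its other probe set, also past the filter, overlapped, at 104 with KA+NAP, 120 with KA, 106 with NAP and 85 with PBS. Over the list, 10 of 13 genes lay below 0 in KA minus PBS, beside 47.2% of all genes, while Dlg2, another PSD-95 relative, was at -0.13 in KA+NAP minus NAP and 0.53 in KA minus PBS. In KA+NAP minus NAP, 9 of 13 lay below 0, beside 47.3% of all genes. On brightest probe sets, both kainic acid arrays were below both others for 6 of the 13 and above them for 2. Over all genes these shares were 28.7% and 32.3%.

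Transcripts of Grik1 and Grik2 are edited at a site in the channel pore by ADAR2, the product of Adarb1, and GluK2 is modified by SUMO. Adarb1 was at 1658 with KA+NAP, 2351 with KA, 2504 with NAP and 2088 with PBS. On this brightest probe set it was lowest on the KA+NAP array, with a log2 difference of -0.59 in KA+NAP minus NAP and 0.17 in KA minus PBS. The second Adarb1 probe set past the filter gave -0.37 and 0.28, but its lowest array was PBS. That probe set was at 156 with KA+NAP, 172 with KA, 204 with NAP and 140 with PBS. Adar, the other editing enzyme, was at -0.14 and -0.60 in these comparisons on its brightest probe set, but its other 2 probe sets gave -0.46 and 0.42, and 0.02 and -0.03, so its direction is uncertain. The SUMO protease genes Senp1 and Senp6 were above 0 in both (0.11 and 0.42, and 0.18 and 0.31). None of the 5 genes of this list past the filter reached 2-fold, and editing itself cannot be read from these arrays.

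The MLK-JNK cascade is a kinase pathway that links GluK2 and PSD-95 to neuronal death after kainic acid in rodents. Of its 6 genes past the filter, 1 reached 2-fold: the transcription factor gene Jun, at 1.31 in KA minus PBS and 0.34 in KA+NAP minus NAP. Its intensities were 1978 with KA+NAP, 2778 with KA, 1565 with NAP and 1111 with PBS, and its other 2 probe sets gave 1.39 and 1.08 in KA minus PBS. Mapk8, encoding JNK1, was at 519 with KA+NAP, 668 with KA, 792 with NAP and 786 with PBS. Its other 2 probe sets past the filter gave -0.17 and -0.45 in KA+NAP minus NAP. Map3k12, encoding the kinase DLK, was at 545 with KA+NAP, 504 with KA, 720 with NAP and 761 with PBS. Map3k11, encoding MLK3, was at 99 with KA+NAP and between 67 and 69 on the other arrays.

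Genes for glutamate supply, uptake and synaptic zinc gave 8 members past the filter, none at 2-fold. All 8 lay below 0 in KA minus PBS, with a median of -0.14, and 6 of 8 in KA+NAP minus NAP, with a median of -0.35. Over all genes, 47.2% and 47.3% lay below 0 in these comparisons. Slc30a3, the transporter that loads zinc into mossy fibre vesicles, was at 672 with KA+NAP, 618 with KA, 1084 with NAP and 1046 with PBS. Slc17a7, the vesicular glutamate transporter of hippocampal excitatory cells, was at 506 with KA+NAP, 549 with KA, 828 with NAP and 817 with PBS. Both separated the arrays with kainic acid from those without. On the second probe set of Slc17a7 that separation was slight, with KA at 266 and PBS at 277. There the KA+NAP array was at 171 and the NAP array at 303. At the upper end of the list, the amino acid transporter gene Slc1a4 was at 0.08 in KA+NAP minus NAP and -0.10 in KA minus PBS. Glul, glutamine synthetase of astrocytes, was at 0.27 and -0.18 on its brightest probe set, while its other 2 probe sets lay above 0 in both.

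The other ionotropic glutamate receptors, of the AMPA, NMDA and delta classes, had 8 subunit genes past the filter, and none reached 2-fold. Both kainic acid arrays were below both others for 6 of 8, against 2 of 4 kainate receptor subunits and 28.7% of all genes. The medians of the other receptors were -0.43 in KA minus PBS and -0.25 in KA+NAP minus NAP, against -0.19 and -0.44 for the kainate receptor subunits. Gria2, the AMPA subunit that limits calcium entry, was at 3173 with KA+NAP, 2956 with KA, 5003 with NAP and 5303 with PBS. In KA+NAP minus KA, 1 of these 8 genes lay below 0, beside 45.4% of all genes. That was Gria3, at -0.33 on its brightest probe set and -0.02 on its other one. The highest was the NMDA subunit gene Grin2c at 0.89 (258 with KA+NAP, 135 with KA). Grin2a was at 0.21 in KA+NAP minus NAP and -0.29 in KA minus PBS. The difference between the receptor classes was not tested.

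**Figure D4:**
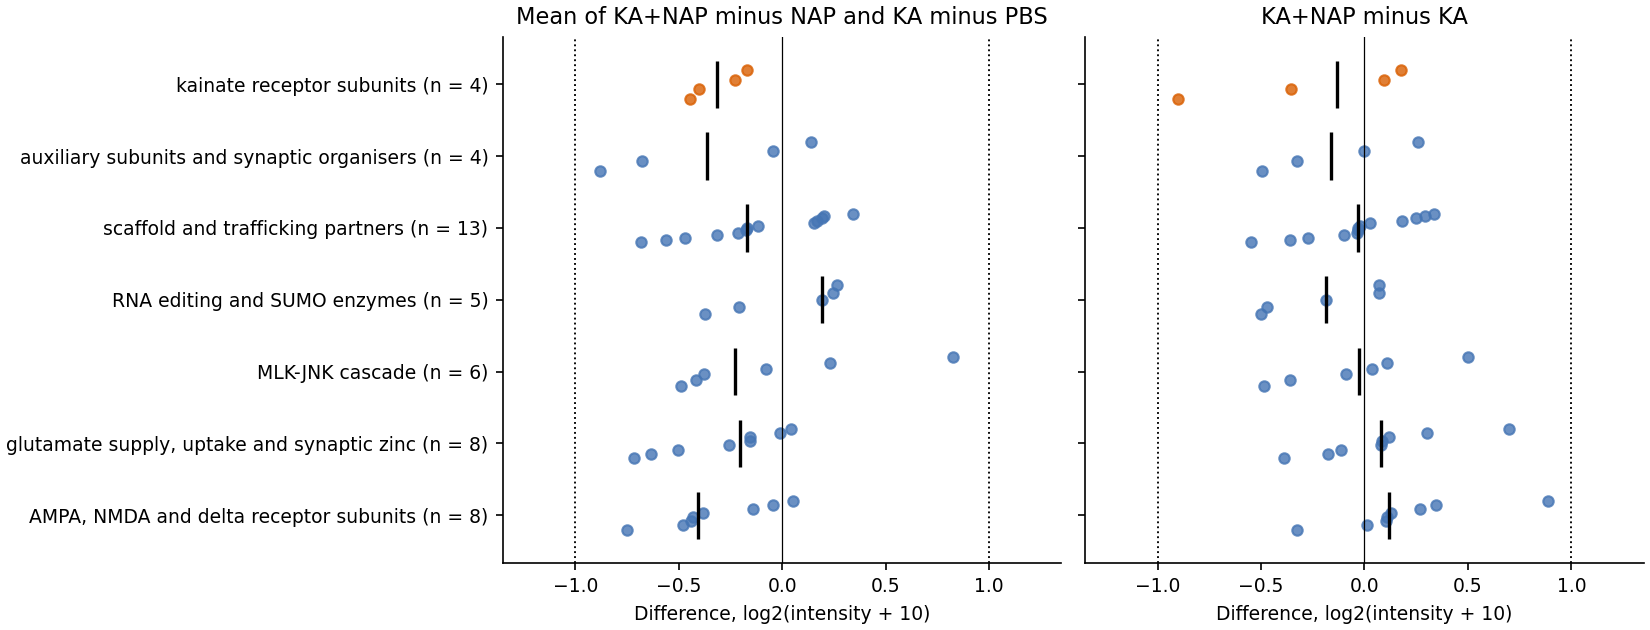
Log2 difference of each gene past the filter (points) and the median of its list (bars), for the kainate receptor subunits (orange) and 6 lists of related genes (blue), as the mean of KA+NAP minus NAP and KA minus PBS (left) and as KA+NAP minus KA (right), with dotted lines at 2-fold. Grik4, at -0.90, is the lowest point of the right panel. All 4 subunits lie left of 0 in the left panel, as do 47.7% of all genes past the filter.

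The genes whose pattern was most like that of each subunit were found by the distance between log2 values centred on each gene's mean, over 4 arrays. Those nearest to Grik4 were Drd1, at a distance of 0.12, Palm3 at 0.13 and Rpusd1 at 0.14, and 9 genes in all lay within 0.2. Drd1 had intensities of 38 with KA+NAP, 88 with KA, 70 with NAP and 88 with PBS. Drd1 and Rpusd1 (34 with KA+NAP) were below 62.75 on the KA+NAP array, so their match to Grik4 rests partly on dim values. Nearest to Grik2 were Arih2, Mapk8 and Inpp4a, with distances from 0.016 to 0.03, among 382 genes within 0.2. Nearest to Grik1 were Mrrf, Gpn3 and Dusp3, among 240 genes within 0.2, and nearest to Grik5 were Hmgn3, Fbxw2 and Sobp, among 544. The distance is not scaled for size, so a gene that varies more over the arrays has fewer neighbours within 0.2: Grik4 spanned 1.05 on the log2 scale, against 0.39 to 0.58 for the other 3.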

How the data were processed

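RNA from the CA3 area was labelled by a 2-cycle protocol from 500 ng of total RNA, per the labels' protocols, and hybridised to 1 Affymetrix array per group. The deposited values are linear intensities per probe set made with MAS5, per the submitters' processing notes, already scaled to one level. Its version and settings were not given in the sources used here. Of 31099 probe sets, 20832 had 1 gene symbol in the platform annotation, 436 had several and were not named, and 57 were controls. Symbols were updated through Entrez identifiers (20764 matched GRCr8 genes). A gene took the value of its brightest probe set. Analysis used log2(intensity + 10) in Python 3.11.15 with pandas 2.3.3 and NumPy 2.4.6, and genes with a mean intensity above 62.75, the median over probe sets other than controls.

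Differences are between single arrays, so a fixed size of 2-fold replaces a test, no p-value is given, and the number of arrays limits precision. The calculation was tested on simulated data. The subunits and lists were chosen with earlier results of these data known. List genes were named when 2-fold apart in a comparison that includes kainic acid, or among the 2 highest and 2 lowest mean KA differences of their list, as were the 3 genes nearest to each subunit in pattern. Marker lists are mostly given as sums. The marker Bok, named outside this rule, and the comparison of KA+NAP with PBS were chosen after values were seen. Of the 16 gene lists, 10 were cell type markers; those for astrocytes, oligodendrocytes, microglia, endothelium and choroid plexus appear in the closing section. The alternatives were 2 pseudocounts, 2 scalings, 2 filters and the mean of all probe sets of a gene.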

Additional observations from a re-analysis of the deposited data

Results flagged for a closer look

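Results were singled out where the KA difference had opposite signs with and without NAP and the 2 values were at least 2-fold apart. None of the 4 kainate receptor subunits past the filter met this. Of 44 subunits, named related genes and list medians examined, 2 did, and neither difference was tested, since each group had 1 array. The median of the 5 CA1 pyramidal markers was 0.39 in KA+NAP minus NAP and -2.08 in KA minus PBS, a difference of 2.48. The median of the 5 dentate granule cell markers past the filter was -0.67 in KA+NAP minus NAP and 0.36 in KA minus PBS, a difference of -1.03.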

How the results depend on the processing

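No paired analysis was possible because each group had 1 array. The 24 differences of the 4 subunits past the filter kept their sign under all 7 alternatives, except that Grik2 in NAP minus PBS, which was 0, became -0.04 at the lowest. Neither filter could change the value of a single subunit, nor could the mean of all probe sets, since each subunit had 1. A pseudocount cannot change the sign of a difference or the order of the arrays. Only the 2 scalings could therefore have changed a sign. Grik4 ranged from -0.94 to -0.78 in KA+NAP minus KA, from -0.79 to -0.64 in KA+NAP minus NAP and from -0.20 to -0.14 in KA minus PBS. Its KA+NAP minus PBS value was -0.92 with a pseudocount of 50, under 2-fold. With the filter at the 75th percentile only Grik4 passed, so the subunit median became -0.90 in KA+NAP minus KA and -1.05 in KA+NAP minus PBS. Without a filter, which admits Grik3, the subunit median in KA+NAP minus KA was 0.09, above 0, against -0.13 with the filter. Whether the kainic acid arrays overlapped the others did not change for any subunit, which only the 2 scalings could have altered. The number of genes at least 2-fold apart followed the filter and the pseudocount. With a pseudocount of 50 it was 435 in KA minus PBS, 477 in KA+NAP minus NAP, 105 in KA+NAP minus KA, 56 in NAP minus PBS and 598 in KA+NAP minus PBS. Without a filter these counts were 1202, 1335, 564, 458 and 1549, and under the stricter filter 296, 295, 56, 42 and 351. At that filter, 1703 genes had both kainic acid arrays higher and 1730 had both lower. Of 259 values recomputed, 239 stayed within 1.5-fold and on their side of 2-fold, and 20 did not. The 239 include the subunit values that the filters and the mean of all probe sets could not change. The other probe sets of a gene could not serve as a check, since each subunit had 1.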

Other observations

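The remaining cell type markers are given as summed intensities. The 9 astrocyte markers summed to 33637 with KA+NAP, 31434 with KA, 38311 with NAP and 37849 with PBS. The 9 oligodendrocyte lineage markers summed to 22515, 20234, 22743 and 22255 in that order. The 10 microglia and macrophage markers summed to 3257 with KA+NAP, 1852 with KA, 2954 with NAP and 3113 with PBS. The sum is weighted by P2ry12, a resting microglia gene at 232 with KA and 1071 with PBS, while the list median in KA minus PBS was 0.10, with 2 genes at least 2-fold higher (Cd68 at 1.30 and Tyrobp at 1.14) and 2 lower (P2ry12 and Tmem119). The 6 endothelial markers summed to 2753, 2061, 2919 and 2178, and the 6 choroid plexus and ependymal markers to 1096, 1740, 1801 and 1607, again in that order. Ttr, the defining choroid plexus transcript, was at 76 with KA+NAP, 453 with KA, 359 with NAP and 354 with PBS. It was lowest on the KA+NAP array, as were 25.7% of all genes. The list had 3 genes past the filter. Of these, Enpp2 was also lowest there, at 818. Foxj1 was highest there, at 117 with KA+NAP, 86 with KA, 75 with NAP and 74 with PBS. The part of these cell types in the subunit values was not tested.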
